A study of Mus musculus with 8 samples.

Results

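C/EBPα binding was examined at 4 genes of the fasting response in mouse liver: Ppara, Ppargc1a, Cpt1a and Fgf21. All peaks in 4 windows of build mm9 were taken, namely chr15:85500000-85700000 around Ppara, chr5:51800000-52060000 around Ppargc1a, chr19:3280000-3420000 around Cpt1a and chr7:52830000-52910000 around Fgf21. The windows held 491 of the 446523 peaks in 8 peak lists. Peaks of different lists were joined into a site where windows of 200 bp around their midpoints overlapped, which gave 108 sites of 113353 in all: 39 at Ppara, 33 at Ppargc1a, 22 at Cpt1a and 14 at Fgf21.

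C/EBPα is a transcription factor of the basic leucine zipper family that in hepatocytes regulates genes of lipid and glucose metabolism. During fasting the liver turns to fatty acids for fuel. Ppara encodes the nuclear receptor PPARα, which binds fatty acid ligands and activates genes of their oxidation. Ppargc1a encodes PGC-1α, a coactivator that works with PPARα and other receptors. Cpt1a encodes the carnitine palmitoyltransferase of the liver, the enzyme that controls entry of long-chain fatty acids into mitochondria. Fgf21 encodes a hormone that the liver secretes on fasting and that is a target of PPARα.

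Chromatin immunoprecipitation and sequencing (ChIP-seq) was run with 1 C/EBPα antibody on liver of mice labelled C57B/6, aged 8 to 10 weeks, kept on chow and fasted for 4 h. In the first experiment, Trib1 flox/flox mice were given 1.5e11 genome copies (gc) of an adeno-associated virus (AAV) coding for Cre (Trib1_LSKO, n = 2 libraries) or of an empty AAV (Trib1_WT, n = 2), so both groups carry the floxed gene and a virus. Trib1 encodes the pseudokinase Tribbles-1, which promotes degradation of C/EBPα protein. In the second, wild-type mice were given 1e12 gc of an AAV coding for C/EBPα (AAV_Cebpa, n = 2) or of the empty virus (AAV_Null, n = 2). The sources used here do not give the promoter that drives each vector gene, or say whether the 2 libraries of a group came from separate animals. Spreads between libraries may therefore be technical. Peak lists hold no RNA or protein, so liver markers, loss of Trib1 and the amount of C/EBPα were not measured.

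Lists held 50075 and 53072 peaks in Trib1_LSKO, 53327 and 54691 in Trib1_WT, 59564 and 80394 in AAV_Cebpa, and 46348 and 49052 in AAV_Null. The depth of each library relative to the shallowest, AAV_Null replicate 1, was 1.18 and 1.28 in Trib1_LSKO, 1.14 and 1.93 in Trib1_WT, 1.85 and 2.27 in AAV_Cebpa, and 1.17 in AAV_Null replicate 2. AAV_Cebpa libraries were thus deeper than their controls, and the part of this in the results was not tested apart from the alternatives given beside them. The strength of a peak is given as its percentile in its own list, where 100 is the strongest. Percentiles rest on the signal the authors deposited for each peak. Gained sites are those with a peak in both treated lists and in neither control list; lost sites are those with a peak in both control lists alone. The exact two-sided permutation test of 2 libraries against 2 cannot give a p below 0.33, so no single site was tested and sites are described.

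All 4 windows held more C/EBPα peaks per length than the lists did on average. The Ppara window held 10.5 to 13 peaks per 100 kb over the 8 lists, the Cpt1a window 7.86 to 10.7, the Fgf21 window 7.5 to 12.5 and the Ppargc1a window 5.0 to 8.08, while the whole lists averaged 1.8 to 3.13 peaks per 100 kb. The whole-list value covers stretches without genes too, and the windows were chosen around genes, so the excess was not tested. At Cpt1a, 13 of the 22 sites lay inside the gene span, and 6 of these were called in all 8 lists. At Ppara, 18 of 39 sites lay inside the gene and 1 of these was in all 8 lists, whereas 4 of 11 sites before the gene start and 5 of 10 past the gene end were. The Ppara sites 36.6 and 36.9 kb downstream, in 7 lists and 1 list, fell into 1 site in all 8 lists with windows of 400 bp. At Ppargc1a, 4 of the 5 sites in all 8 lists lay inside the gene. At Fgf21, whose span is only about 2.1 kb, 10 of 14 sites lay past the gene end. Other genes were not placed on the mm9 windows. In RefSeq gene order (assembly GRCm38.p6), the nearest protein-coding neighbours are Wnt7b and Cdpf1 for Ppara, with the let-7 genes Mirlet7c-2 and Mirlet7b between Wnt7b and Ppara, Adgra3 and Dhx15 for Ppargc1a, Mrpl21 and Tesmin for Cpt1a, and Bcat2 and Fut1 for Fgf21. No site was assigned to a gene, and distances run from the approximate mm9 gene start.

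**Figure D1:**
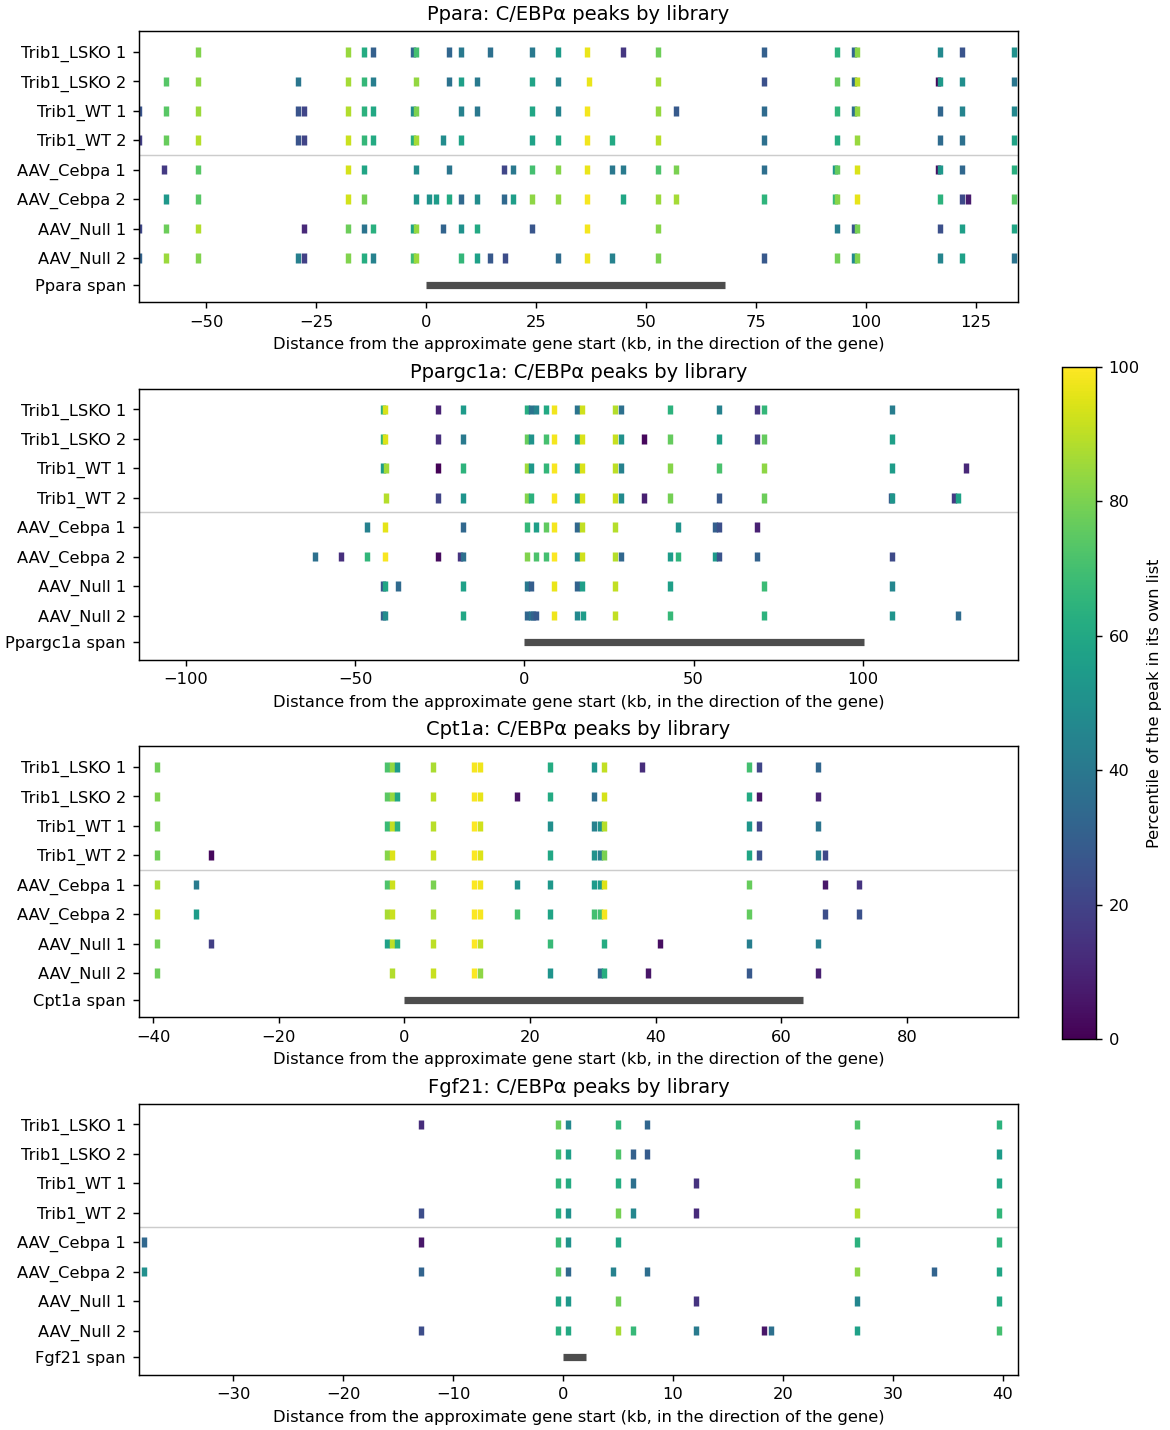
C/EBPα peaks of each library at the 4 loci, by distance from the approximate gene start (kb, in the direction of the gene); colour is the percentile of the peak in its own list and the grey bar is the gene span. Bright marks run through all 8 libraries at 11.1 kb in Cpt1a and 8.9 kb in Ppargc1a, while 41.3 kb upstream of Ppargc1a the marks are bright in Trib1_LSKO and AAV_Cebpa and dimmer in AAV_Null.

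**Figure D2:**
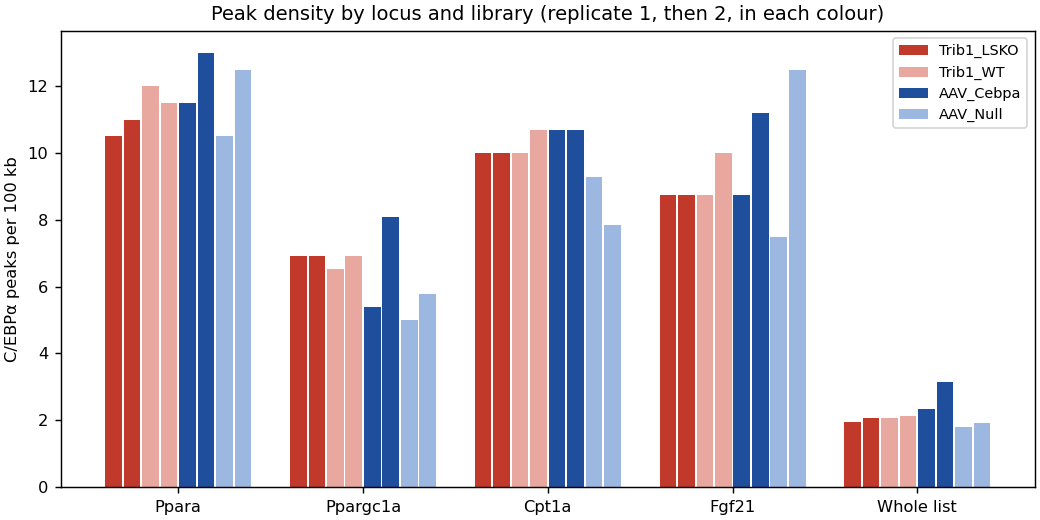
C/EBPα peaks per 100 kb in each locus window and over the whole list, 1 bar per library. At every locus all 8 libraries stand above the whole-list values of 1.8 to 3.13.

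Over the 4 loci, 27 of 108 sites (25.0%) were called in all 8 lists, against 21.5% of all sites, and 22 (20.4%) in a single list, against 27.1%. Each locus but Fgf21 had sites above the 90th percentile in at least 1 list, 4 at Ppara, 4 at Ppargc1a and 6 at Cpt1a. The 4 at Ppara include those at 36.6 and 36.9 kb, which are 1 site with windows of 400 bp. The mean percentile of the sites in all 8 lists ranged from 40.7 to 87.1 at Ppara, 44.8 to 98.2 at Ppargc1a, 57.8 to 99.3 at Cpt1a and 51.6 to 70.4 at Fgf21. The number of peaks in the 4 loci together was 60 and 61 in Trib1_LSKO, against 62 and 64 in Trib1_WT, and 59 and 71 in AAV_Cebpa, against 53 and 61 in AAV_Null. The second difference, 8.0 peaks, was smaller than the spread in AAV_Cebpa (SD 8.49) and turned to -4.5 when each AAV list was reduced to its strongest 46348 peaks. It was 2.0 without AAV_Cebpa replicate 2, 4.0 without AAV_Null replicate 1, 14.0 without AAV_Cebpa replicate 1 and 12.0 without AAV_Null replicate 2. The first, -2.5 peaks, was 2.0 when only sites within 10 kb of the gene spans were counted and -1.5 without Trib1_WT replicate 2. Per locus, the lowest p of the exact permutation test was 0.33 and all 10 adjusted values (Benjamini-Hochberg) were 1.0.

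The first comparison asked how C/EBPα binding at these genes differed after Cre was given to floxed Trib1 livers. Few sites came or went. Of the 82 sites with a peak in any of its 4 lists, 4 were gained in Trib1_LSKO (4.88%, 95% Wilson interval 1.91% to 11.9%), against 4.74% of all sites, and 5 were lost (6.1%, 2.63% to 13.5%), against 4.86%. Intervals here cover counting of sites only. Of the 45 sites called in all 4 lists, 6 had a higher percentile in both Trib1_LSKO lists than in both Trib1_WT lists (13.3%, 6.26% to 26.2%), against 20.2% of all such sites, and 14 a lower one (31.1%, 19.5% to 45.7%), against 36.5%. These counts moved when 1 library was left out, which loosens the definitions by construction. Without Trib1_LSKO replicate 1 there were 7 gained, 15 higher and 22 lower sites. Without Trib1_LSKO replicate 2 there were 8 gained, 8 lost and 30 lower sites. Without Trib1_WT replicate 1 there were 8 gained, 12 lost and 26 lower sites, and without Trib1_WT replicate 2 there were 10 higher sites.

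The AAV_Cebpa livers address how binding at these genes differed when more C/EBPα was supplied. Of the 100 sites with a peak in any list of that experiment, 18 were gained in AAV_Cebpa (18.0%, 95% Wilson interval 11.7% to 26.7%), against 22.1% of all sites, and 10 were lost (10.0%, 5.52% to 17.4%), against 6.03%. Of 29 sites called in all 4 lists, 14 were higher in both AAV_Cebpa lists (48.3%, 31.4% to 65.6%), against 39.1% of all such sites, and 8 lower (27.6%, 14.7% to 45.7%), against 27.8%. In lists of equal length the 4 loci had 13 gained (15.3%, background 17.1%) and 12 lost sites (14.1%, background 13.0%), and 9 higher (34.6%, background 25.6%) and 10 lower ones (38.5%, background 48.8%). Without AAV_Cebpa replicate 1, 29 sites were gained and 14 lower, and 20 sites were lost without AAV_Null replicate 1. For the full lists, the share over all sites lay inside the Wilson interval of the loci for each of the 8 counts.

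At Ppara, the sites nearest to the gene start on its upstream side were weaker or missing in AAV_Cebpa. The site 2.4 kb upstream (chr15:85562871-85563104) was called in all 8 lists, at percentiles of 70.1 and 83.8 in Trib1_LSKO and 80.4 and 86.6 in Trib1_WT, and at 48.3 and 51.9 in AAV_Cebpa and 84.0 and 84.8 in AAV_Null. The AAV groups did not overlap there, also in lists of equal length and in ranks among the sites called in all 8 lists, while the Trib1 groups overlapped. The site 2.9 kb upstream was lost in AAV_Cebpa, with 58.2 and 68.8 in AAV_Null, and was called in 1 Trib1_LSKO list at 32.5 and in both Trib1_WT lists at 48.3 and 62.6. The site 12.1 kb upstream was also lost in AAV_Cebpa, with 63.3 and 44.2 in AAV_Null. In the first experiment the same site stood at 30.2 and 42.2 in Trib1_LSKO, below 60.1 and 60.8 in Trib1_WT. Both these sites were thus low or absent in the 2 treated groups.

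Farther upstream of Ppara, binding did not follow 1 pattern. The sites 65.3 and 27.8 kb upstream were lost in both comparisons, and both were weak, at 18.6 to 25.8 in Trib1_WT and 11.5 to 31.3 in AAV_Null. The site 52.0 kb upstream was in all 8 lists and lower in both treated groups, at 80.9 and 83.0 in Trib1_LSKO against 84.9 and 88.8 in Trib1_WT, and at 73.9 and 74.2 in AAV_Cebpa against 88.5 and 81.1 in AAV_Null. The site 17.8 kb upstream was higher in AAV_Cebpa, at 93.7 and 93.2 against 77.7 and 80.9 in AAV_Null, and lower in Trib1_LSKO, at 84.7 and 86.4 against 88.5 and 92.0 in Trib1_WT.

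Over the Ppara window, 6 of 38 sites with a peak in an AAV list were gained in AAV_Cebpa (15.8%, Wilson interval 7.44% to 30.4%). The share over all sites, 22.1%, lay inside that interval. Of the 6 gained sites, 5 lay inside the gene, where the strongest site was held by every group. That strongest site of the locus, 36.6 kb downstream of the start (chr15:85601862-85602088), stood between 96.5 and 98.6 in 7 lists. The remaining list, Trib1_LSKO replicate 2, had its peak 352 bp from the middle of this site, in a site of its own at 36.9 kb with a percentile of 96.7. The strongest gained site, at 56.8 kb, had percentiles of 79.9 and 86.6 in AAV_Cebpa and was otherwise called in 1 Trib1_WT list, at 28.1. The site at 5.1 kb (chr15:85570394-85570649) was gained in both comparisons, at 32.5 and 37.5 in Trib1_LSKO and 38.7 and 60.5 in AAV_Cebpa, with no peak in any of the 4 control lists. The site nearest to the start, 0.6 kb downstream, was called in AAV_Cebpa replicate 2 alone, at 50.6. The gained site at 19.6 kb had 40.1 and 55.6 in AAV_Cebpa and no peak elsewhere, and that at 44.8 kb had 41.3 and 59.0, with 15.7 in 1 Trib1_LSKO list. The gained site at 17.6 kb had 20.8 and 33.9 in AAV_Cebpa, but AAV_Null replicate 2 had a peak 242 bp from it, at 23.4. A sixth gained site, 92.8 kb from the start and past the gene end, had 52.4 and 66.9 in AAV_Cebpa and lay 481 bp from a peak of AAV_Null replicate 1, at 42.3. The site at 97.3 kb was lost in AAV_Cebpa, with 26.9 and 46.9 in AAV_Null, and its neighbour at 97.9 kb was higher, at 94.3 and 96.3 in AAV_Cebpa against 79.3 and 80.9 in AAV_Null.

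At Ppargc1a, 2 strong positions were much weaker in AAV_Null than in the other 3 groups. At 41.3 kb upstream (chr5:51987162-51987385) the percentiles were 94.0 and 94.9 in Trib1_LSKO, 95.8 and 98.9 in AAV_Cebpa, and 59.3 and 48.2 in AAV_Null. Trib1_WT had no peak in that site but one 309 and 271 bp away, at 41.0 kb, with 86.2 and 89.0. By the site rule this is 1 gained and 1 lost site of Trib1_LSKO. With windows of 400 bp both fell into 1 site called in all 8 lists, in which Trib1_LSKO stood above Trib1_WT and AAV_Cebpa above AAV_Null without overlap. A weaker site at 41.9 kb was lost in AAV_Cebpa, with 26.9 and 29.4 in AAV_Null. The second position, 16.9 kb downstream of the start, stood at 92.6 and 94.3 in Trib1_LSKO, 94.5 and 94.4 in Trib1_WT, and 90.7 and 92.9 in AAV_Cebpa. In AAV_Null it was at 55.9 in replicate 1, and replicate 2 had a peak 342 bp away, at 55.0. The AAV_Null libraries were also among the shallowest, and the part of depth in these positions was not tested.

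The Ppargc1a gene start showed the same order of the AAV groups. The site 0.8 kb downstream (chr5:51945070-51945332) was called in all 8 lists, at 62.4 and 76.8 in Trib1_LSKO and 85.9 and 81.6 in Trib1_WT, and at 66.5 and 81.2 in AAV_Cebpa and 40.4 and 33.1 in AAV_Null. Neither pair of groups overlapped, and this held in lists of equal length and among the sites called in all 8 lists. The adjacent site at 2.0 kb went the other way with extra C/EBPα and was lost, with 29.5 and 38.3 in AAV_Null. In the first experiment it was at 38.5 and 51.5 in Trib1_LSKO, below 53.5 and 63.8 in Trib1_WT. The site at 6.5 kb was gained in AAV_Cebpa, at 75.4 and 70.0, and was called in both Trib1_LSKO lists at 60.3 and 70.7 and in 1 Trib1_WT list at 66.3. In Trib1_LSKO, 6 of the 13 Ppargc1a sites called in all 4 lists were lower than in Trib1_WT and none was higher. The shares over all sites, 36.5% lower and 20.2% higher, lay inside the Wilson intervals of these counts (23.2% to 70.9% and 0.0% to 22.8%). The lower sites include the strongest site of the locus, 8.9 kb downstream, with 97.8 and 98.2 in Trib1_LSKO against 99.0 and 99.1 in Trib1_WT. In AAV_Cebpa that site stood at 98.2 and 99.4, against 96.8 and 97.3 in AAV_Null.

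Other gained and lost sites at Ppargc1a were spread over the window. Called in the 2 AAV_Cebpa lists alone were sites 46.6 kb upstream, at 43.7 and 66.0, 45.3 kb downstream, at 51.4 and 65.1, and 56.4 kb downstream, at 30.4 and 54.5. The site at 57.5 kb was gained in AAV_Cebpa as well, at only 24.0 and 25.9, though all Trib1 lists held it, at 43.8 and 56.0 in Trib1_LSKO and 71.4 and 27.2 in Trib1_WT. The site at 68.9 kb was gained in both comparisons and was weak, at 15.7 and 18.2 in Trib1_LSKO and 9.14 and 31.1 in AAV_Cebpa. Close by, at 70.8 kb, a stronger site was lost in AAV_Cebpa, with 68.3 and 64.3 in AAV_Null, and was lower in Trib1_LSKO, at 66.1 and 76.3 against 83.0 and 77.7 in Trib1_WT. Among the sites in all 8 lists, the one at 26.8 kb stayed between 88.9 and 92.3, with 89.0 in both AAV_Cebpa lists and 90.7 and 91.0 in AAV_Null.

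The promoter of Ppargc1a is shown because a site called in every list lay within 1 kb of the approximate mm9 start. The RefSeq start was not placed on mm9, so the distance from that site to the bases below is not known. The 250 bases before the RefSeq start (build GRCm38.p6, chr5:51567726-51567975, minus strand) run as follows, with matches to searched motifs in capitals.
Ppargc1a promoter: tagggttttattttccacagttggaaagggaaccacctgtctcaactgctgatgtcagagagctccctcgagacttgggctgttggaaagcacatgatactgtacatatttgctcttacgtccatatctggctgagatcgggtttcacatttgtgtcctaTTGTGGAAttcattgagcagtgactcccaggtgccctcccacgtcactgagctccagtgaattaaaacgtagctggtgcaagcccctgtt
The match, TTGTGGAA, begins 90 bases before the start and fits the loose C/EBP pattern TTNNGNAA, which 36.8% of 32851 RefSeq promoters of that length hold on either strand. The stricter C/EBP pattern TTGCNNAA, whose matches all fit the loose one on one strand or the other, was not in this window and is in 9.56% of promoters. Nor were the element of PPARα and its partner RXR, searched as 2 copies of AGGTCA with any 1 base between them (0.0335% of promoters), or the cyclic AMP response element TGACGTCA (1.55%). A match is only a match of letters, and which bases lie under the peaks was not determined here.

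**Figure D3:**
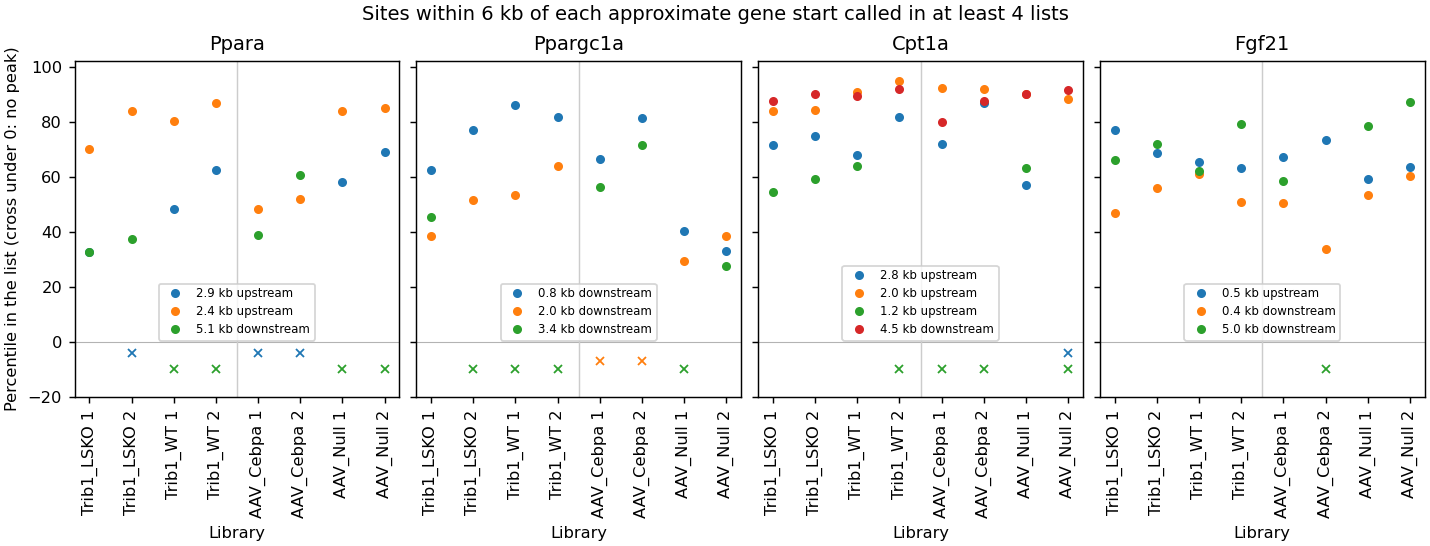
Percentile in each library of the sites within 6 kb of each approximate gene start that were called in at least 4 lists; a cross under 0 marks a library with no peak. The site 2.4 kb upstream of Ppara is low in both AAV_Cebpa libraries (48.3 and 51.9), and the site 0.8 kb downstream of the Ppargc1a start is low in both AAV_Null libraries (40.4 and 33.1).

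At Cpt1a, the gene for the gatekeeper enzyme, 3 sites inside the gene were stronger in both treated groups than in their controls. The site 31.7 kb downstream (chr19:3353908-3354126) stood at 90.9 and 93.5 in Trib1_LSKO against 88.7 and 79.9 in Trib1_WT, and at 95.3 and 98.5 in AAV_Cebpa against 61.4 and 62.7 in AAV_Null. The site at 54.8 kb stood at 70.1 and 60.9 in Trib1_LSKO against 52.2 and 58.9 in Trib1_WT, and at 76.7 and 75.8 in AAV_Cebpa against 42.3 and 27.4 in AAV_Null. The site at 11.9 kb stood at 97.3 and 96.3 in Trib1_LSKO against 92.8 and 94.9 in Trib1_WT, and at 97.8 and 98.7 in AAV_Cebpa against 90.4 and 83.1 in AAV_Null. None of the 3 overlapped between the groups of either experiment, and the order was the same in lists of equal length and among the sites called in all 8 lists. Over the 4 loci, 5 of the 27 sites called in all 8 lists (18.5%) were higher in both comparisons, against 3601 of 24318 such sites in the whole lists (14.8%), so sites of this order were common outside the loci too.

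The strongest site of all 4 loci was next to one of these. It lay 11.1 kb downstream of the Cpt1a start (chr19:3333308-3333530) and ranked 678 and 528 in the Trib1_LSKO lists, 338 and 245 in Trib1_WT, 373 and 396 in AAV_Cebpa, and 151 and 198 in AAV_Null. Its percentiles, 98.6 and 99.0 in Trib1_LSKO against 99.4 and 99.5 in Trib1_WT, and 99.4 and 99.5 in AAV_Cebpa against 99.7 and 99.6 in AAV_Null, were slightly lower in both treated groups. Rank 1 is the strongest peak of a list, so all 8 libraries placed it in their top 2 percent.

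Close to the Cpt1a start, the sites 2.0 kb upstream and 4.5 kb downstream were common to all libraries and the nearest was not. The site at 4.5 kb stood at 79.9 and 87.4 in AAV_Cebpa, below 90.2 and 91.6 in AAV_Null. That order was kept in lists of equal length and in ranks among the sites called in all 8 lists, while the Trib1 groups overlapped. The site 2.0 kb upstream was in all 8 lists, at 83.9 and 84.1 in Trib1_LSKO, below 90.8 and 94.8 in Trib1_WT. It stood at 92.2 and 92.0 in AAV_Cebpa and 90.2 and 88.4 in AAV_Null, an order that was lost in lists of equal length and among the sites called in all 8 lists. The site nearest to the start, 1.2 kb upstream, was called at 54.3 and 59.0 in Trib1_LSKO, in 1 Trib1_WT list at 63.8, in neither AAV_Cebpa list and in 1 AAV_Null list at 63.3. Sites gained in AAV_Cebpa lay at 33.1 kb upstream and at 17.9, 30.1, 67.0 and 72.4 kb downstream. That at 33.1 kb had 41.3 and 55.0 in AAV_Cebpa, that at 67.0 kb 5.86 and 23.7, and that at 72.4 kb 15.0 and 24.7. The site at 17.9 kb had 50.4 and 70.0 in AAV_Cebpa and was otherwise called in 1 Trib1_LSKO list, at 4.86, while that at 30.1 kb had 54.3 and 70.0 in AAV_Cebpa and was held by all 4 Trib1 lists at 35.8 to 51.6. The site at 31.2 kb was lost in Trib1_LSKO, with 50.9 and 42.7 in Trib1_WT, but a Trib1_LSKO peak lay 514 bp away. The site at 65.9 kb was lost in AAV_Cebpa, with 42.3 and 8.63 in AAV_Null.

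At Fgf21, the approximate mm9 gene start lay between 2 sites called in all 8 lists. The one 0.5 kb upstream (chr7:52871760-52871982) stood at 76.8 and 68.6 in Trib1_LSKO against 65.5 and 63.2 in Trib1_WT, and at 67.2 and 73.2 in AAV_Cebpa against 59.3 and 63.5 in AAV_Null. It was higher in both treated groups without overlap, but in AAV lists of equal length it was lower in AAV_Cebpa than in AAV_Null. In ranks among the sites called in all 8 lists it was higher in AAV_Cebpa, at 41.9 and 41.3 against 35.0 and 38.6, so the scales disagree. The one 0.4 kb downstream (chr7:52870852-52871094) had 47.0 and 56.0 in Trib1_LSKO and 61.1 and 50.8 in Trib1_WT, which overlap. It had 50.4 and 33.9 in AAV_Cebpa, below 53.2 and 60.4 in AAV_Null. That order was lost in lists of equal length and kept in ranks among the sites called in all 8 lists. The Fgf21 promoter is shown as the 250 bases before the RefSeq start (build GRCm38.p6, chr7:45615491-45615740, minus strand). That start was not placed on mm9, so where these bases lie relative to the 2 sites is not known.
Fgf21 promoter: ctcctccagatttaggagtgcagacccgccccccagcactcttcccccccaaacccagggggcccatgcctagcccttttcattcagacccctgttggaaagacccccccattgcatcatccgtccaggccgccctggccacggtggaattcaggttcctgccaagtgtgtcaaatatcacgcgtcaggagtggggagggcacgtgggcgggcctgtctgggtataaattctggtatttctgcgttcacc
None of the 4 motifs was in this window on either strand, and the same was true of the promoters of Ppara and Cpt1a. Only these 4 patterns were searched, so the result does not show that a promoter lacks other forms of a C/EBP element.

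In the Fgf21 window, 3 sites were gained or lost in either comparison. In Trib1_LSKO, 1 of 9 was gained and 1 lost (11.1% each), against 4.74% and 4.86% of all sites. In AAV_Cebpa, 1 of 14 was gained and 1 lost (7.14% each), against 22.1% and 6.03%. These shares over all sites lay inside the Wilson intervals of the locus (1.99% to 43.5% and 1.27% to 31.5%). The site 12.1 kb downstream was lost in both comparisons, with 14.7 and 12.1 in Trib1_WT and 15.0 and 41.3 in AAV_Null. The site at 7.7 kb was gained in Trib1_LSKO, at 32.5 and 28.7, and was called in AAV_Cebpa replicate 2, at 35.8. The site 38.1 kb upstream was gained in AAV_Cebpa, at 33.3 and 49.9. At 26.7 kb downstream, a site in all 8 lists stood at 72.3 and 73.0 in Trib1_LSKO against 80.0 and 88.1 in Trib1_WT, and at 63.8 and 83.2 in AAV_Cebpa against 45.9 and 56.9 in AAV_Null. The AAV groups overlapped there in lists of equal length, but not in ranks among the sites called in all 8 lists. The site at 5.0 kb was called in 7 lists at 58.6 to 87.0, and AAV_Cebpa replicate 2 had a peak 454 bp away, at 44.3.

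**Figure D4:**
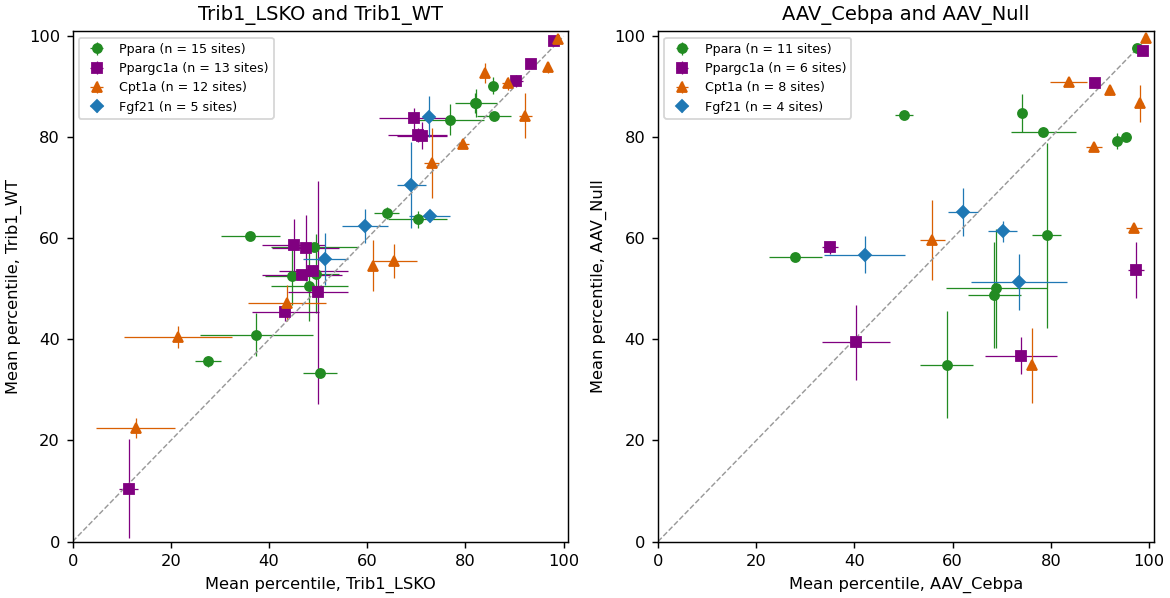
Mean percentile of sites called in all 4 lists of a comparison, Trib1_LSKO by Trib1_WT (left) and AAV_Cebpa by AAV_Null (right); bars span the 2 libraries and the dashed line marks equal percentiles. Sites below the line are stronger in the treated group, such as the Cpt1a site 31.7 kb downstream at right, and the Ppara site 2.4 kb upstream lies above it.

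Set side by side over the 4 loci, the experiments, which have separate control libraries, had 2 gained sites in common, 1 at Ppara and 1 at Ppargc1a (1.85% of the 108 sites, against 1.62% of all sites). These were 2 of the 4 gained in Trib1_LSKO and of the 18 gained in AAV_Cebpa. They had 3 lost sites in common, 2 at Ppara and 1 at Fgf21, of the 5 lost in Trib1_LSKO and the 10 lost in AAV_Cebpa (2.78%, against 0.534% of all sites). No site of the loci was gained in one and lost in the other, and such sites were rare in the whole lists, 57 gained in Trib1_LSKO and lost in AAV_Cebpa and 207 the reverse, of 113353. A further 4 sites were lower in Trib1_LSKO and lost in AAV_Cebpa (3.7%, against 0.898% of all sites), among them the Ppara site 12.1 kb upstream and the Ppargc1a sites at 2.0 and 70.8 kb. Absence from a list did not always mean absence of a nearby peak, since 49 of the 373 missing calls at member sites had a peak of the same list within 500 bp. Some lost sites had a peak of the treated group just beyond that bound. These were Ppara at 2.9 kb upstream (503 bp) and 97.3 kb (573 bp), Ppargc1a at 41.9 kb upstream (574 bp) and Cpt1a at 31.2 kb (514 bp).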

How the data were processed

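C/EBPα ChIP-seq peak lists of 8 mouse liver libraries were analysed, in 4 groups of 2 taken from the labels. The submitters' processing notes name Bowtie, HOMER and build mm9; versions, input and calling threshold are not stated in the sources used. The deposited signal value of each peak is the authors' own and came in whole multiples of a step per list, within 0.051, for at least 99.9% of peaks. The inverse of the step gave relative depth, and the weakest peaks held 7 to 12 steps. Absolute depth is unknown. Tied ranks were averaged.

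Sites were built by joining 200 bp windows around peak midpoints with an overlap of 1 bp or more (Python 3.11.15, pandas 2.3.3, scipy 1.17.1), and the code was tested on simulated data. The members and lists were chosen with earlier results of these data known. Sites named are all gained or lost ones, the 3 strongest of each locus, the nearest to each gene start, and a few others picked after their values were seen. Gene starts in mm9 are approximate. No mm9 annotation was used here, so other fasting genes were not examined. Promoters are from RefSeq (build GRCm38.p6), and their starts were not placed on mm9.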

Additional observations from a re-analysis of the deposited data

Results flagged for a closer look

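Of the 27 sites called in all 8 lists, 5 moved in opposite directions in the 2 experiments, lower in both Trib1_LSKO lists than in both Trib1_WT lists and higher in both AAV_Cebpa lists than in both AAV_Null lists. The difference between the experiments was not tested. This was 18.5% of the 27, against 7.19% (1748 of 24318) of all sites called in all 8 lists. The Ppargc1a site 0.8 kb downstream of the start differed by -14.1 percentile points between Trib1_LSKO and Trib1_WT and by 37.1 between AAV_Cebpa and AAV_Null. The Fgf21 site 26.7 kb downstream differed by -11.4 and 22.1 in the same order, and the Ppara site 17.8 kb upstream by -4.7 and 14.2. The Cpt1a site 2.0 kb upstream differed by -8.8 and 2.8, and the Ppargc1a site 8.9 kb downstream by -1.1 and 1.7. In lists of equal length, the Cpt1a and Fgf21 sites no longer kept the AAV groups apart. In ranks among the sites called in all 8 lists, the AAV groups overlapped at the Cpt1a site but not at the Fgf21 site. The shares of 18.5% and 7.19% are for the full lists and were not worked out for lists of equal length.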

How the results depend on the processing

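Counts are over the 4 loci, and causes were not tested. Counts with windows of 100 or 400 bp stayed within 1.5 times of those reported. In Trib1_LSKO against Trib1_WT, the strongest 50% of each list gave 1 gained and 2 lost sites, and asking for presence in the strongest 50% but absence from whole lists gave 1 and 1. Sites within 10 kb of the gene spans gave 1 lost site and a peak difference of 2.0, opposite in sign to -2.5. Ranks among sites called in all 8 lists, where by construction only 27 sites enter, gave 7 lower sites. Leaving out 1 library gave 4 to 8 gained, 7 to 12 lost, 7 to 15 higher and 20 to 30 lower sites.

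In AAV_Cebpa against AAV_Null, the strongest 50% gave 6 lost, 8 higher and 4 lower sites. Presence in the strongest 50% but absence from whole lists gave 6 gained and 2 lost sites. Within 10 kb of the gene spans there were 4 lost, 7 higher and 5 lower sites. Lists of equal length gave 9 higher sites and a peak difference of -4.5, opposite in sign to 8.0. Leaving out 1 library gave 20 to 29 gained, 11 to 20 lost and 9 to 14 lower sites. A signal minimum of 6.1, chosen after seeing the data, gave a peak difference of 6.5, and -1.5 in the Trib1 experiment.

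With the replicate number as a block, 6 sites were higher and 20 lower in Trib1_LSKO, and 17 higher and 8 lower in AAV_Cebpa, and the peak differences were -2.5 and 8.0. Deviations of same-numbered libraries correlated at 0.14 over 34866 sites in the Trib1 experiment and -0.02 over 27702 in the other. With 2 numbers and no shared origin stated in the labels, this does not settle whether the numbers pair the libraries. With 2 libraries a group, absolute depth unknown and peaks called per library, a missing call is not shown to be missing binding.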
